A study of Mus musculus with 6 samples.

Results

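The genes described here are 4 ligands of the bone morphogenetic protein (BMP) family, Bmp2, Bmp4, Bmp5 and Bmp7, and 6 genes whose products bind or block such ligands, Bmper, Grem1, Nog, Chrdl1, Fst and Bambi. They were taken by name, and all 10 have a probe set (a group of short probes that reads a transcript) annotated to that gene alone, among 18193 such genes on the array. Each gene was read from the brightest of its probe sets over all arrays, and any others served as a check. The members have 18 probe sets in all, and 9 of the 10 genes passed the filter on low signals. Nog did not and was not tested. Bambi encodes a membrane protein rather than a secreted one and is kept in the set as a decoy receptor.

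All samples were wild type, of the FVB/N strain and of unknown sex, and were labelled as bladder neck and urethra at embryonic day 13, which the labels place at Theiler stage 21. Trypsin and a needle were used to part the epithelium from the mesenchyme, and each layer was read on 3 Affymetrix mouse arrays after 2 rounds of RNA amplification (epithelium 1, 2 and 5, mesenchyme 1, 2 and 3, by sample title). Samples were not pooled, per the labels, but nothing there ties an array to an embryo of its own, and p-values therefore measure a spread between samples that may be technical. The labels disagree on where the cut lay relative to the ureters.

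BMPs are secreted dimers that bind type I and type II serine/threonine kinase receptors, which phosphorylate Smad1, Smad5 and Smad9, and these enter the nucleus with Smad4 to switch on genes such as those of the Id and Msx families. Outside the cell, Noggin, Gremlin, chordin-like proteins and follistatin bind the ligands and keep them from their receptors, so that range and strength of the signal depend on both. In the developing urogenital tract BMPs are known as signals between epithelium and the mesenchyme around it, and Bmp4 is known from mouse studies as a mesenchymal signal of the ureter and bladder.

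Promoter sequence was held by the RefSeq table (assembly GRCm38.p6) for 4 of the 10 members, Bmp4, Bmp5, Bmper and Grem1. Those of Bmp4 and Bmper are shown because both genes differed between the layers in at least 1 of the fits below, and that of Grem1 because it holds the letters known as the BMP response element. The 250 bases before the annotated start are given 5′ to 3′, with every match to a searched motif in capitals. The Bmp4 stretch lies at chr14:46390670-46390919 (minus strand), the Bmper stretch at chr9:23222826-23223075 (plus strand) and the Grem1 stretch at chr2:113758649-113758898 (minus strand).
Bmp4: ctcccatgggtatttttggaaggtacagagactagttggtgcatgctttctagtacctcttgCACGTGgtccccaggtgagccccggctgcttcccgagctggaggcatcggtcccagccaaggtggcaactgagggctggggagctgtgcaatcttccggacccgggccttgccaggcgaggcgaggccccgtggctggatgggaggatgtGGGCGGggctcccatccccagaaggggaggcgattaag
Bmper: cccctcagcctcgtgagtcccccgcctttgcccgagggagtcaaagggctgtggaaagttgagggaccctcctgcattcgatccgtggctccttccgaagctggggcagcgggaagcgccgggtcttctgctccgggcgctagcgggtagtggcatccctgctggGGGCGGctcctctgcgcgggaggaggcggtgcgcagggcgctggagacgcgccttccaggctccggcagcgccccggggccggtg
Grem1: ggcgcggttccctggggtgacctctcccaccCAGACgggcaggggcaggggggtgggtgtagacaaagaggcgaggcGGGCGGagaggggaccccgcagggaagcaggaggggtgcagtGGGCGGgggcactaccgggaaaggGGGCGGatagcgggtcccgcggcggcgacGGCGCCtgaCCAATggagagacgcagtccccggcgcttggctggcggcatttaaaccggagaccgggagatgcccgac

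The 7 motifs were searched on both strands, and no matches overlapped in these sequences. GGCGCC, the core of the BMP response element, was found once in Grem1, 78 bases before the start, and in 9.59% of all 32851 promoters of the table. The E-box CACGTG was found once in Bmp4, 188 bases before the start (6.02% of promoters). The GC box GGGCGG was found once each in Bmp4 and Bmper and 3 times in Grem1 (32.7% of promoters). Grem1 also held the Smad box GTCTG, read on the other strand, and a CCAAT box, which stood in 42.2% and 33.8% of promoters. The Bmp5 stretch, not shown, held a Smad box as well, 134 bases before the start. The TATA box TATAAA (12.4%) and the Gli site GACCACCCA (0.225%) were in none of the 4. Bases G and C made up 63.2% of the Bmp4 stretch, 71.6% of that of Bmper, 72.0% of that of Grem1 and 42.8% of that of Bmp5, against a median of 52.4%. A match describes these letters and is not a binding site.

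Levels below are normalized signals, the deposited intensities after quantile normalization, in array units. Differences are log2 epithelium minus mesenchyme of log2(signal + 16) with limma's standard error (SE) or 95% confidence interval (CI), so negative values are higher in mesenchyme, and n is 3 arrays per layer unless mesenchyme 1 is left out. Adjusted p is limma's, with Benjamini-Hochberg adjustment over all genes tested and a threshold of 0.05. Tissue layers are bulk samples, so fewer cells that express a gene and less RNA per cell cannot be told apart.

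Before any result, the array labelled mesenchyme 1 stood apart from the other mesenchymal arrays. Over the genes tested its correlation with mesenchyme 2 and 3 was 0.784 and 0.755, against 0.981 between those arrays, and 20 of 21 markers of liver, heart, pancreas, lung and epidermis read over 4-fold higher on it than on either. Alb, the liver's albumin, read 58365 there against 206 and 216 on mesenchyme 2 and 3, Sftpc, a lung surfactant gene, 26025 against 214 and 264, and Flg of the epidermis 12314 against 25.7 and 13.5. Whether that array holds the labelled tissue alone was not tested, and values over all 6 arrays are to be read with that limit. Summed over 12 epithelial markers, signal was 218800 to 239800 in epithelium, 89840 on mesenchyme 1, 14550 on mesenchyme 2 and 3069 on mesenchyme 3. The 12 mesenchymal markers summed to 244500 to 290800 on the mesenchymal arrays and 35720 to 56390 on the epithelial ones. All 12 epithelial and 10 of 12 mesenchymal markers passed the threshold in their own layer without mesenchyme 1, and 3 and 7 with it. The main fit of each tested member is therefore given with and without mesenchyme 1. Differences of further probe sets and of Nog are from all 6 arrays. Scaling moved the median difference of all genes from 0.06 (no normalization) to 0.12 (as used here) and 0.23 (median centring). Of the 9 tested members none changed direction between these scalings.

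With all 6 arrays 1 of the 9 tested members, Bmper, passed the threshold, where 5.98% of all 13717 genes tested did (4.03% higher in mesenchyme and 1.95% in epithelium). Without mesenchyme 1 it was 3 of 9, Bmp2, Bmp4 and Bmper, all higher in mesenchyme, where 14.5% of 13587 genes passed (8.17% higher in mesenchyme and 6.37% in epithelium). Of the 9, 8 had negative differences in both fits, Bmp7 being the exception. Their median difference was -0.93 (-1.12 without mesenchyme 1), against 0.12 (0.02) over all genes tested. The arrays of the layers did not overlap for 5 members (4 with mesenchyme above) with all arrays, where 28.8% of genes did not (13.2% with mesenchyme and 15.5% with epithelium above), and for 8 members (7 with mesenchyme above) without mesenchyme 1, where 45.4% did not (22.3% and 23.1%).

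**Figure D1:**
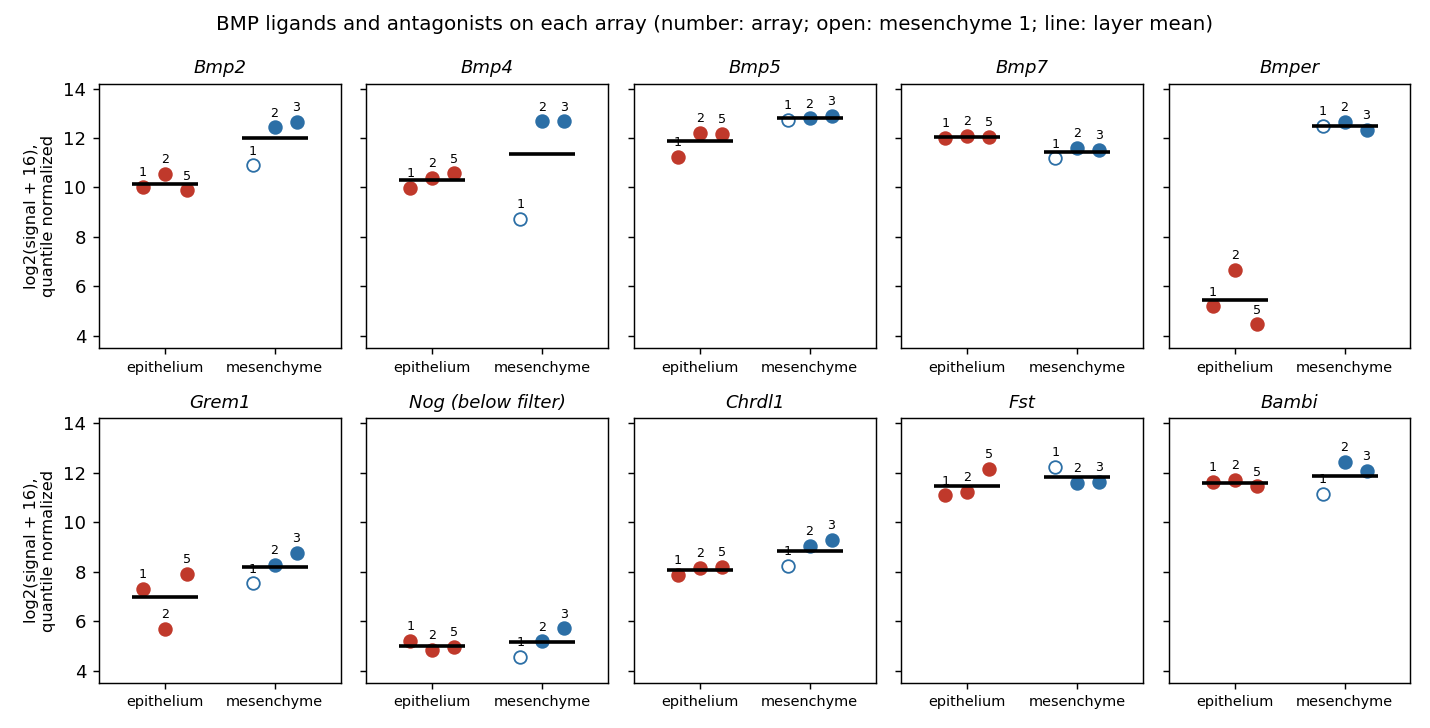
Normalized log2(signal + 16) of the 10 members, 1 panel each, with a point per array (numbered as in the titles), mesenchyme 1 open and a line at each layer's mean. Bmper is at 5752, 6350.4 and 5176 signal units on the mesenchymal arrays and at most 85.4 on the epithelial ones, and Bmp4 on mesenchyme 1 lies below every epithelial array.

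Among the ligands, Bmp4 showed the widest spread within a layer. Its normalized signal was 991, 1335 and 1503 on epithelium 1, 2 and 5 and 409, 6513 and 6508 on mesenchyme 1, 2 and 3. Mesenchyme 2 and 3 were thus alike and high, while mesenchyme 1 lay under the whole epithelial range, so the layers overlapped. With all arrays the difference was -1.04 (95% CI -3.43 to 1.35, adjusted p = 0.615), and without mesenchyme 1 it was -2.40 ± 0.272 SE (5.26-fold, CI 3.37 to 8.22, adjusted p = 0.002). Mesenchyme 1 minus the mean of mesenchyme 2 and 3 was -3.94 on the log2 scale for Bmp4, a departure larger than that of 96.5% of the genes tested.

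Bmp2, the closest relative of Bmp4 in the family, followed the same order on mesenchyme 2 and 3 and not on mesenchyme 1. It read 1013, 1479 and 926 on epithelium 1, 2 and 5 and 1886, 5488 and 6398 on mesenchyme 1, 2 and 3. Every mesenchymal array lay above every epithelial array, mesenchyme 1 by the least. The difference of -1.84 ± 0.507 SE (3.59-fold) did not pass with all arrays (adjusted p = 0.0881). It was -2.44 ± 0.293 (5.41-fold, CI 3.35 to 8.76, adjusted p = 0.00232) without mesenchyme 1. Both Bmp2 and Bmp4 are then read against 2 mesenchymal arrays.

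Bmp5 belongs with Bmp6 and Bmp7 to another branch of the ligand family. It read 2419, 4726 and 4604 on epithelium 1, 2 and 5 and 6757, 7089 and 7634 on mesenchyme 1, 2 and 3. The layers did not overlap, and mesenchyme 1 lay with the other mesenchymal arrays. The difference of -0.93 ± 0.321 (CI -1.68 to -0.18, adjusted p = 0.165) did not pass, nor did -0.98 (adjusted p = 0.115) without mesenchyme 1. A second probe set of Bmp5 gave -0.85 without overlap (adjusted p = 0.298), and another, dimmer one gave -0.48 with overlap (adjusted p = 0.669), both in a fit of every probe set.

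Bmp7, known as a ligand of many embryonic epithelia, was the member with a positive difference. It read 4087, 4295 and 4228 on epithelium 1, 2 and 5 and 2296, 3081 and 2906 on mesenchyme 1, 2 and 3. All epithelial arrays lay above all mesenchymal ones, and the epithelial arrays lay within 0.07 log2 units of each other. The difference was 0.61 ± 0.257 (1.53-fold, CI 0.01 to 1.22, adjusted p = 0.249), and 0.50 (CI -0.01 to 1.01, adjusted p = 0.201) without mesenchyme 1, so neither passed. A second probe set gave 0.68 with overlapping layers (adjusted p = 0.466), and the third was below the filter.

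Among the genes of ligand-binding proteins, Bmper separated the layers most. Bmper encodes a secreted protein with cysteine-rich domains related to chordin that binds BMPs and is known both to block and to favour their action. It read 20.4, 85.4 and 5.98 on epithelium 1, 2 and 5 and 5752, 6350.4 and 5176 on mesenchyme 1, 2 and 3. The mesenchymal arrays lay close together, mesenchyme 1 included, and all 3 epithelial arrays lay under the filter level of 96.3 signal units. Bmper therefore passed the filter only through mesenchyme, and its fold is a lower bound. Set against that level in place of the dimmer epithelial signals, mesenchyme was at least 51.2-fold higher, or at least 56.7-fold without mesenchyme 1. The fitted difference was -7.06 ± 0.576 (adjusted p = 0.00358), and -7.13 ± 0.619 (adjusted p = 0.00102) without mesenchyme 1. Its size depended on the offset added before taking logs, at -7.96 with 1 and -5.92 with 64, and with no filter its adjusted p was 0.00506.

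Markers of several other cell types were also higher in the mesenchymal layer, but not every list went that way. The 3 glial and neural crest markers summed to 17090 to 24550 on the epithelial and 6895 to 12050 on the mesenchymal arrays. Most of that sum was Erbb3, at 16817 to 24263 on the epithelial and 6444 to 11721 on the mesenchymal arrays. Erbb3 passed as higher in epithelium without mesenchyme 1. Sox10 overlapped, at 134 to 257 on the epithelial and 170 to 199 on the mesenchymal arrays. Foxd3 was dim and higher on every mesenchymal array, at 129 to 281 against 15.9 to 121. The sum thus follows Erbb3 and not the list as a whole. The summed signal of the 5 erythroid markers overlapped, at 11330 to 50630 on the epithelial and 17240 to 58610 on the mesenchymal arrays. It was mostly Hbb-y, except on mesenchyme 1. Hba-x and Hba-a1 overlapped as well. Slc4a1 (59 to 371 in epithelium, 483 to 9469 in mesenchyme) and Alas2 (39.6 to 275 and 346 to 5420) were higher on every mesenchymal array. The 6 endothelial markers summed to 508 to 1688 on the epithelial and 10610 to 13870 on the mesenchymal arrays, and 3 of them passed with all arrays (4 without mesenchyme 1). The 5 neuronal markers on the array summed to 502 to 980 and 24340 to 34270 (4 passed in each fit), and the 6 smooth muscle markers to 4866 to 10810 and 24440 to 51880 (2 passed, and 3 without mesenchyme 1). The 6 striated muscle markers summed to 629 to 683 and 6861 to 119500 (4 passed in each fit), and the 6 leukocyte markers to 2840 to 5845 and 7707 to 46220 (0 passed in limma with all arrays, 5 at an unadjusted p under 0.05, and 2 without mesenchyme 1). The endothelial, smooth muscle, striated muscle and leukocyte sums were highest on mesenchyme 1, where Bmp2 and Bmp4 were lowest among the mesenchymal arrays. Their part in the differences of the members was not tested.

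Grem1, which encodes Gremlin, an antagonist of Bmp2 and Bmp4, varied among the epithelial arrays. It read 140.2, 35.9 and 224 on epithelium 1, 2 and 5 and 168, 295 and 412 on mesenchyme 1, 2 and 3. Mesenchyme 1 fell within the epithelial range, and mesenchyme 2 and 3 lay above it. The difference was -1.22 (CI -2.80 to 0.37, adjusted p = 0.377), and -1.56 (CI -3.17 to 0.05, adjusted p = 0.204) without mesenchyme 1. Its probe set is of a kind that can match several transcripts of a gene.

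Chrdl1, a chordin-like antagonist, read 219.6, 269 and 278 on epithelium 1, 2 and 5 and 282, 516 and 602 on mesenchyme 1, 2 and 3. The layers did not overlap, though mesenchyme 1 lay just above the highest epithelial array. The difference was -0.77 ± 0.415 (adjusted p = 0.363), and -1.12 ± 0.311 (2.17-fold, CI 1.30 to 3.61, adjusted p = 0.0574) without mesenchyme 1, close to the threshold and on the other side of it in 3 of 8 further settings without that array (lowest adjusted p = 0.032). Its second probe set read 175, 167 and 4.01 on epithelium 1, 2 and 5 and 421, 389 and 403 on mesenchyme 1, 2 and 3. Its layers did not overlap either (-2.24, adjusted p = 0.243), and epithelium 5 lay far below every other array. The remaining 2 probe sets of Chrdl1 were below the filter.

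Fst encodes follistatin, known for binding activins tightly and BMPs less so. It read 2156, 2352 and 4556 on epithelium 1, 2 and 5 and 4796, 3093 and 3127 on mesenchyme 1, 2 and 3. Epithelium 5 and mesenchyme 1 were high, and the layers overlapped with and without mesenchyme 1. The difference was -0.33 (CI -1.23 to 0.56, adjusted p = 0.669), and -0.13 (CI -0.99 to 0.74, adjusted p = 0.88) without mesenchyme 1. Its second probe set gave 0.04, likewise with overlap.

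Nog, which encodes the antagonist Noggin, read 20.7, 12.3 and 15.0 on epithelium 1, 2 and 5 and 7.43, 20.2 and 36.0 on mesenchyme 1, 2 and 3. These values overlapped and lay under the filter on low signals, so no level is drawn from its single probe set. Fitted without the filter, the difference was -0.15 (adjusted p = 0.881).

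Bambi encodes a membrane protein that resembles a type I receptor without the kinase, and it is known as a gene that BMP signals induce. It read 3178, 3342 and 2782 on epithelium 1, 2 and 5 and 2262, 5490.4 and 4274 on mesenchyme 1, 2 and 3. As for Bmp4, mesenchyme 1 lay below every epithelial array while mesenchyme 2 and 3 lay above all of them. The difference was -0.28 (CI -1.16 to 0.60, adjusted p = 0.714), and -0.65 (1.57-fold, CI -1.22 to -0.09, adjusted p = 0.134) without mesenchyme 1.

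**Figure D2:**
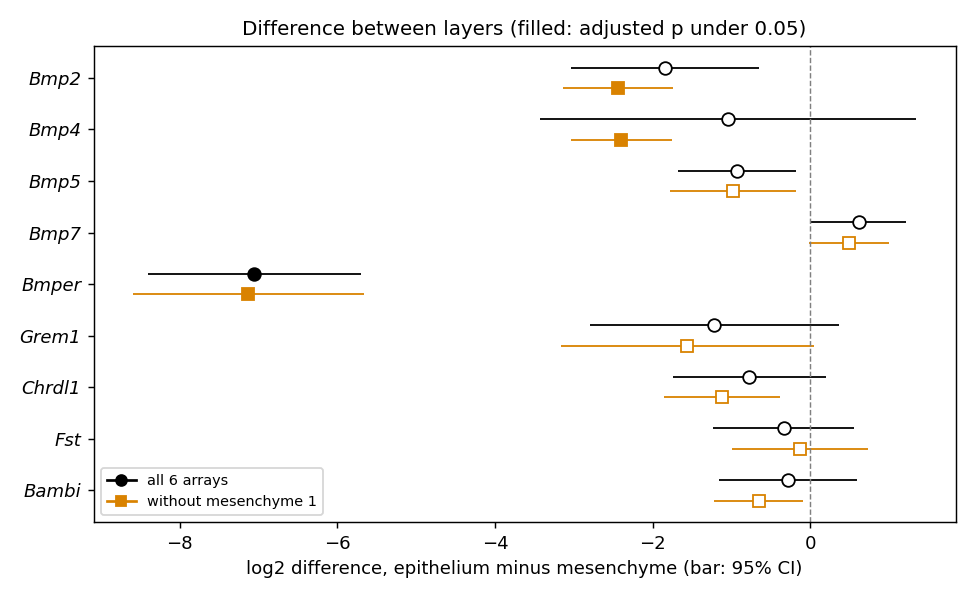
Log2 difference, epithelium minus mesenchyme, of the 9 tested members with 95% confidence intervals, from all 6 arrays (circles) and without mesenchyme 1 (squares), filled where adjusted p was under 0.05. Bmper is filled in both fits, at -7.06 and -7.13, and Bmp2 and Bmp4 only without mesenchyme 1, where the Bmp4 interval narrows to -3.04 to -1.75.

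The members differed in how far mesenchyme 1 departed from mesenchyme 2 and 3. For 7 of the 9 tested members it was the lowest mesenchymal array, the exceptions being Bmper and Fst, and the same held for 55.4% of all genes tested. Mesenchyme 1 minus the mean of mesenchyme 2 and 3 was -1.64 for Bmp2, -1.09 for Bambi, -0.99 for Grem1, -0.95 for Chrdl1, -0.38 for Bmp7, -0.12 for Bmp5, 0.00 for Bmper and 0.62 for Fst. The median size of this departure over all genes tested was 0.75, so those of Bmp5, Bmp7, Bmper and Fst were smaller than that of most genes. Mesenchyme 2 and 3 themselves lay 0.19 apart in the median gene and 0.00 apart for Bmp4.

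**Figure D3:**
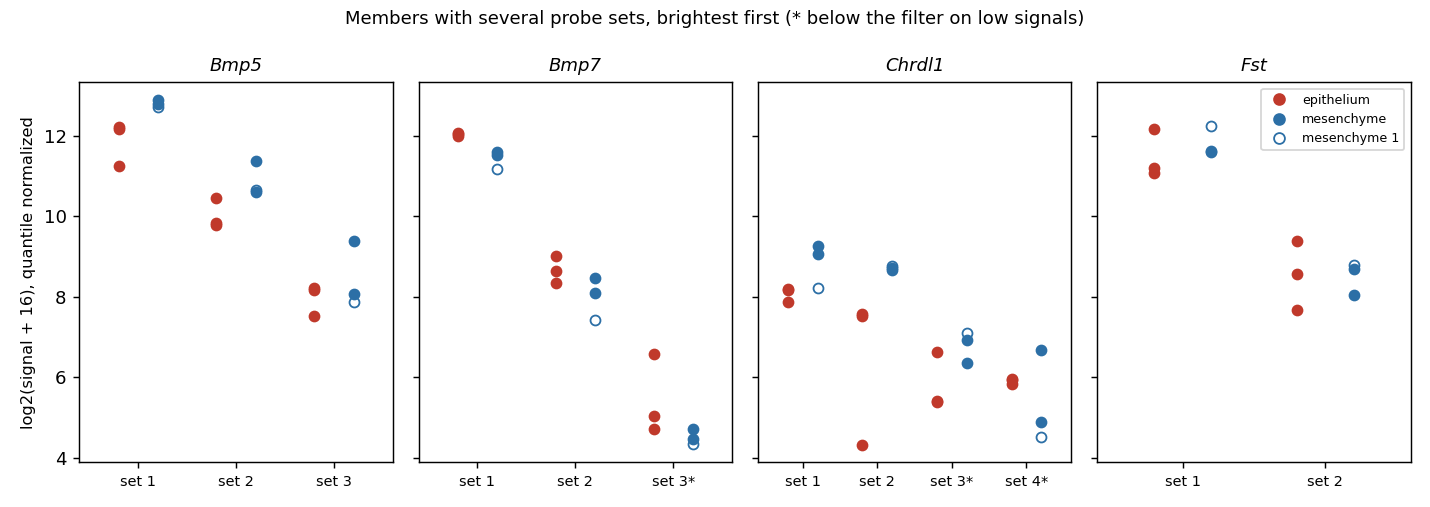
Normalized log2(signal + 16) on each array for the 4 members with several probe sets, ordered from brightest to dimmest, with epithelium in red, mesenchyme in blue and mesenchyme 1 open. The 3 sets of Bmp5 and the brighter pairs of Bmp7 and Chrdl1 keep the sign of the layer difference, and those of Fst have differences of -0.33 and 0.04.

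The rest of the pathway was read from 5 lists with 64 genes, of which 59 have a single-gene probe set and 45 were tested with all arrays (48 without mesenchyme 1). With all arrays 4 passed, Gdf10, Vwc2 and Hey1 higher in mesenchyme and Gata3 higher in epithelium, where 5.98% of all genes tested passed. Without mesenchyme 1, 12 passed, 8 higher in mesenchyme and 4 in epithelium, which included those 4. Of all genes tested 14.5% then passed. The median difference of the 45 was -0.11 (-0.36 for the 48). The count of 4 rested on the arrays used, being 0 without epithelium 1 or without mesenchyme 2, 1 without epithelium 5 or without mesenchyme 3, and 3 without epithelium 2. In limma 10 and 12 genes had an unadjusted p under 0.05 where that count was 0. With all arrays and no filter on low signals 3 passed, 1 higher in epithelium and 2 in mesenchyme.

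Of the other ligands 2 were tested with all arrays and 1 passed. Gdf10, a divergent member of the family also called Bmp3b, read 266, 555 and 387 on epithelium 1, 2 and 5 and 3666.5, 3511.5 and 1932 on mesenchyme 1, 2 and 3. The layers were far apart on every array, mesenchyme 1 included (-2.87 ± 0.417, 7.30-fold, adjusted p = 0.0112, and -2.78 without mesenchyme 1).

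Of 13 other secreted antagonists and modulators tested, 1 was higher in mesenchyme with all arrays. This was Vwc2, which encodes Brorin, a BMP-binding protein with chordin-like domains, read from a probe set of a kind that can match other genes. Vwc2 read 23.8, 56.9 and 99.4 on epithelium 1, 2 and 5 and 520.5, 877 and 462 on mesenchyme 1, 2 and 3. Its epithelial mean lay under the filter level, so Vwc2 passed the filter through mesenchyme. Set against that level, mesenchyme was at least 5.40-fold higher. The fitted difference was -3.14 ± 0.541 (adjusted p = 0.0192), and -3.27 ± 0.585 (adjusted p = 0.0104) without mesenchyme 1. Without mesenchyme 1, 2 of 15 were higher in mesenchyme, Vwc2 and Fstl1 (-0.69, adjusted p = 0.02), a follistatin-like secreted protein, and 1 was higher in epithelium. That 1 was Sostdc1, an antagonist of BMP and Wnt signals, which read 1935, 1462 and 2716 on epithelium 1, 2 and 5 and 3081, 407 and 660.0 on mesenchyme 1, 2 and 3. It was highest on mesenchyme 1, so its difference was 1.05 with all arrays (adjusted p = 0.472) and 1.95 ± 0.366 without that array (3.87-fold, adjusted p = 0.0125).

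Of 13 receptors and co-receptors 0 passed in limma with all arrays (2 at an unadjusted p under 0.05), with a median difference of -0.17. The type I receptors Bmpr1a and Acvr1 and the type II receptor Bmpr2 had differences of -0.17, -0.27 and -0.11 (-0.35, -0.47 and 0.01 without mesenchyme 1). Those 3 were named after their values had been seen. Without mesenchyme 1 the co-receptor Hjv, known from muscle and liver, passed (-2.60 ± 0.600, adjusted p = 0.0289). It read 20.1, 81.7 and 28.5 on epithelium 1, 2 and 5 and 8895, 360 and 269.8 on mesenchyme 1, 2 and 3. All epithelial arrays lay under the filter level, so Hjv too passed the filter through mesenchyme. Set against that level, mesenchyme was at least 3.01-fold higher without mesenchyme 1. The summed striated muscle markers had the same order over the mesenchymal arrays, with 119500 on mesenchyme 1 and 12250 and 6861 on mesenchyme 2 and 3, and the part of muscle in this value was not tested. Of 7 SMAD transducers and inhibitors 0 passed in limma with all arrays (1 at an unadjusted p under 0.05). Smad1, which carries the BMP signal, passed without mesenchyme 1 (-0.51 ± 0.128, 1.42-fold, adjusted p = 0.0409, and -0.41, adjusted p = 0.195, with all arrays).

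BMP-responsive genes went both ways, with 1 of 10 higher in each layer with all arrays and 3 in each without mesenchyme 1. Of all genes tested, 4.03% were higher in mesenchyme and 1.95% in epithelium with all arrays. These shares were 8.17% and 6.37% without mesenchyme 1. Msx2, a homeobox gene induced by BMPs, read 1086, 904 and 1049 on epithelium 1, 2 and 5 and 230.0, 181 and 22.2 on mesenchyme 1, 2 and 3 (3.06, adjusted p = 0.053, and 3.62 ± 0.647, adjusted p = 0.0103, without mesenchyme 1). Without mesenchyme 1 the mesenchymal mean of Msx2 lay under the filter level, so Msx2 passed the filter through epithelium in that fit. Set against that level, epithelium was at least 7.31-fold higher. Msx1, a relative of Msx2, had the opposite order, at 227, 212 and 233 on epithelium 1, 2 and 5 and 298, 753 and 925 on mesenchyme 1, 2 and 3. Msx1 did not pass with all arrays (-1.35, adjusted p = 0.183) and did without mesenchyme 1 (-1.88 ± 0.297, 3.68-fold, adjusted p = 0.00643). Gata3, a zinc finger factor of urogenital epithelia, was higher in epithelium (2.45 ± 0.456, adjusted p = 0.0249, and 2.06 without mesenchyme 1). Hey1, a repressor induced by Notch as well as BMP, was higher in mesenchyme (-1.39 ± 0.309, adjusted p = 0.0444, and -1.54 without mesenchyme 1). The other calls without mesenchyme 1 were Id4 (-0.95, adjusted p = 0.0309) in mesenchyme and Dlx5 (1.21, adjusted p = 0.0369) in epithelium. With all arrays neither passed (-0.83, adjusted p = 0.0983, and 0.77, adjusted p = 0.392).

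**Figure D4:**
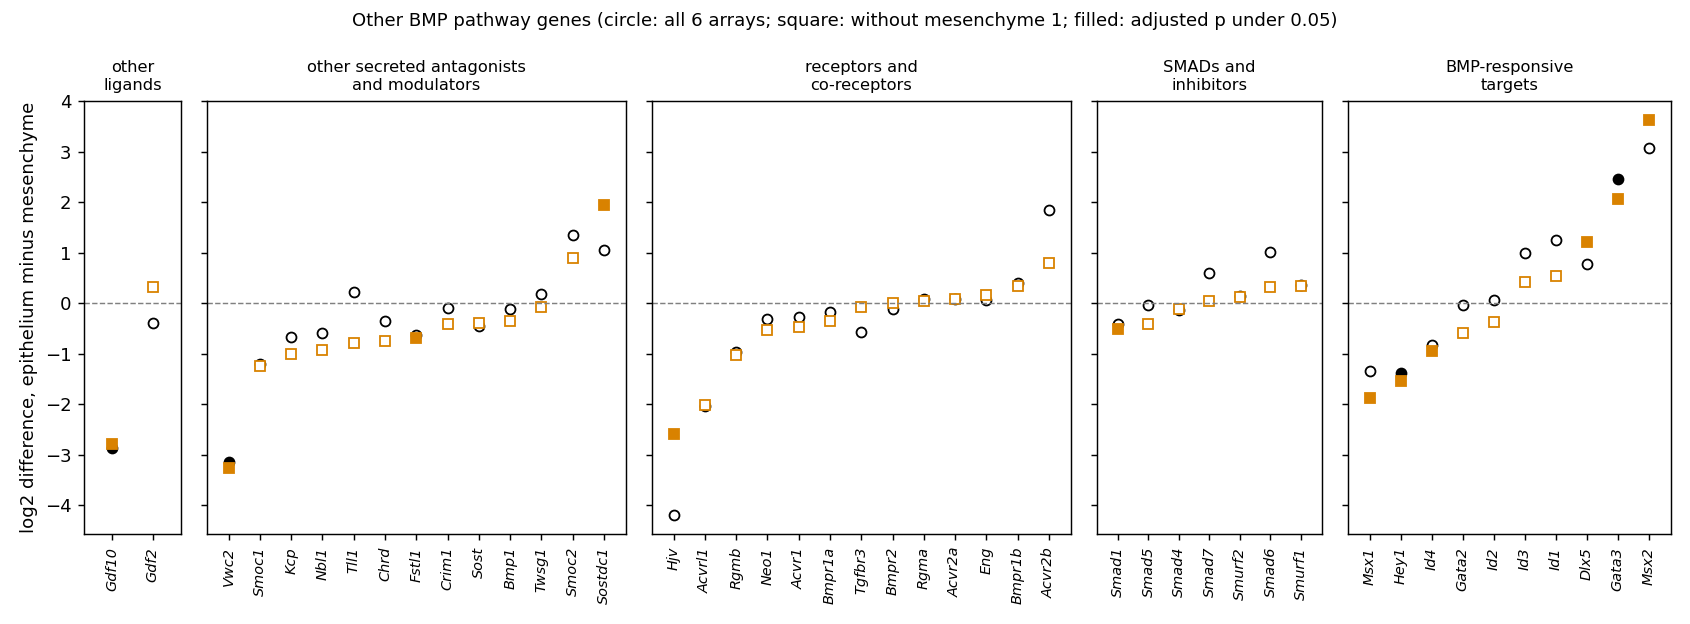
Log2 difference, epithelium minus mesenchyme, of the 45 other BMP pathway genes tested in both fits, in 5 lists, with all 6 arrays (circles) and without mesenchyme 1 (squares), filled where adjusted p was under 0.05. Gdf10 and Vwc2 lie near -3 in both fits, Hjv moves from -4.19 to -2.60 without mesenchyme 1, and Msx2 and Gata3 lie above 2.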

How the data were processed

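Epithelium and mesenchyme were measured on 3 arrays each. The authors deposited 1 probe set intensity for every array, not log-transformed. Per the submitters' processing notes, GCOS (software of the array's maker) was used, in a version not given in the sources here. Trimmed of 2% at either end, the mean was 1500 on every array, a common scaling by the authors. Array medians ran from 126 to 254. The number of arrays limits the precision, and no detection calls were used.

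The 64 control probe sets of 45101 were left out. Per the platform annotation 34945 name 1 gene, 932 several and 9160 are unnamed here. Values were quantile normalized after log2(signal + 16), probe sets with a mean above the 40th percentile were kept, and the brightest per gene was tested with limma 3.58.1 in R 4.3.3 (lmFit, eBayes with intensity trend, no covariate). A fold change on this scale understates the change of dim genes. Normalization, filter and choice of probe set were repeated wherever an array was left out, and no member changed its probe set.

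The members, lists, tests and alternatives were chosen with earlier results of these data known. Named are all members, every other pathway gene past the threshold with all arrays, and up to 4 per list with the largest difference past it without mesenchyme 1. Id1, Id3, Id4, Dlx5, Smad6, Smad7 and the receptors Bmpr1a, Acvr1 and Bmpr2 fall outside that rule. Correlations between members were planned and are not given, since the arrays fall into 2 layers. The code was tested on simulated data. Alternatives were other offsets, normalizations, filters, probe set rules, variance models, array quality weights, a block for the replicate number, and leaving out each array. Combinations with mesenchyme 1 left out were chosen after seeing the data.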

Additional observations from a re-analysis of the deposited data

How the results depend on the processing

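The number of arrays, 3 per layer, and the departure of mesenchyme 1 limit these results, and dim probe sets such as those of Nog and Grem1 carry little information. Of 106 member values under 12 single changes of processing, 99 kept direction and side of the threshold. Array quality weights brought 7 members, 22 other pathway genes and 5109 of all genes past the threshold. That setting lets arrays count unequally, and the cause was not tested. Leaving out 1 array gave 1 to 3 members, 0 to 12 other pathway genes and 142 to 1975 of all genes. The last count was 142, 551 and 241 on leaving out epithelium 1, 2 or 5, and 1975, 192 and 330 on leaving out mesenchyme 1, 2 or 3. Bmper stayed past the threshold each time (adjusted p = 0.00102 to 0.03 in limma). With mesenchyme 1 left out, 8 further changes gave 3 members each, or 4 with median centring or no variance trend. The other pathway genes and all genes past the threshold then numbered 11 and 1863 with an offset of 1, 12 and 2115 with 64, 10 and 1942 without normalization, 8 and 1613 with median centring, 10 and 1882 without the filter, 10 and 1642 with the filter at the 60th percentile, 12 and 1956 with the mean of probe sets and 9 and 1751 without a variance trend. Bmp2 and Bmp4 passed in all 8 (highest adjusted p = 0.0108 and 0.00517). Bmper passed in the 7 where it was tested, being under the filter at the 60th percentile. With its probe sets averaged and mesenchyme 1 left out, Fst turned to 0.0322 (adjusted p = 0.974).

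The replicate numbers 1 and 2 occur in both layers, and no label says that they mark shared embryos. Deviations of same-numbered arrays from their layer means correlated at -0.05 and -0.02 across genes. The mesenchymal means include mesenchyme 1, whose departure enters both correlations, so these values cannot decide whether embryos were shared. With the replicate block 0 members, 0 other pathway genes and 0 of all genes passed in limma (1, 7 and 1460 at an unadjusted p under 0.05), and Bmper had -6.64 (adjusted p = 0.088). With 4 block levels for 6 arrays this fit leaves few residual degrees of freedom.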

Other observations

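Several genes that BMP signals are known to induce were, like Bmp4, lowest of the mesenchymal arrays on mesenchyme 1. The same held for 55.4% of all genes tested. The genes given here were named after their values had been seen, and no link to Bmp4 was tested. Id1, an inhibitor of helix-loop-helix factors, read 8628, 9659 and 6711 on epithelium 1, 2 and 5 and 1283, 5614 and 5683 on mesenchyme 1, 2 and 3. Its relative Id3 read 6045, 6779 and 4159 on epithelium 1, 2 and 5 and 1242, 4435 and 3844.5 on mesenchyme 1, 2 and 3. The inhibitory SMAD genes Smad6 and Smad7 read 247 and 491 on mesenchyme 1, where mesenchyme 2 and 3 read 1000.2 and 1316 for Smad6 and 1540.1 and 1587 for Smad7. Id4 read 9742 on mesenchyme 1, below the 13143 and 11656 on mesenchyme 2 and 3 but above every epithelial array. Not every BMP-responsive gene was lowest of the mesenchymal arrays on mesenchyme 1. Dlx5 read 673 on mesenchyme 1 against 328 and 244 on mesenchyme 2 and 3, and Msx2 read 230.0 against 181 and 22.2. Mesenchyme 1 also carries markers of other organs, and their part in these values was not tested.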
